A study of Mus musculus with 12 samples.

Results

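This section describes 34 genes of endothelial cells, the cells that line blood vessels, in erythroid cells of the mouse fetal liver that lacked or carried the transcription factor IKAROS. The genes were taken as a given list of names, chosen with earlier results of these data known. All 34 were found among the 38250 genes of the deposited table. Ter119+ cells, that is, cells bearing a surface marker of the erythroid lineage, were profiled by RNA-seq in 12 libraries after fetal liver cells had been kept for 48 h on a stromal layer with erythropoietin. The comparison asks how the loss of IKAROS and exposure to a NOTCH ligand change gene expression in these cells.

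The libraries fell into 4 groups of 3. IkNull/OP9-DL1 and IkNull/OP9 cells came from CD1 embryos at e14.5 that were homozygous for a deletion of the last translated exon of Ikzf1, which leaves the IKAROS protein unstable in every tissue. IkWT/OP9-DL1 and IkWT/OP9 cells came from their wild-type littermates. OP9 is a stromal line from mouse bone marrow, and OP9-DL1 is its derivative engineered to express the NOTCH ligand DL1. The deletion was germline, so the livers from which the cells came lacked IKAROS in the other cell types as well. The study's methods describe sorting of Ter119+ cells by flow cytometry, while the sample labels describe passage through a filter. Replicates were numbered 1, 2 and 3 in IkNull and 1, 3 and 4 in IkWT, each number with a library on both stromas, and values per library are given below in that order. The study calls them biological triplicates. Libraries of 1 genotype and number are called a culture below. Each stroma was a separate co-culture, and the labels do not say what a number stands for.

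Values are normalized counts, that is, reads per gene divided by a size factor per library. Their total lay between 18.3 M and 30.0 M per library (M, mega), with a median of 25.5 M, and 3 reads corresponded to 1.74 to 4.53 normalized counts, depending on the library. Dll1, which encodes DL1, had 387 to 523 normalized counts in IkNull/OP9-DL1 and 203 to 484 in IkWT/OP9-DL1 libraries. On OP9 it had 0 to 2.01 in IkNull and 0.952 to 5.58 in IkWT libraries. The engineered stroma itself expresses DL1, and how much stromal RNA the libraries held was not tested. Counts over Ikzf1 do not check the genotype, since most of the gene remains on the mutant allele. They were 1721 to 2719 in the 6 IkNull libraries of both stromas and 2424 to 2721 in the 6 IkWT libraries. In the first principal component of all genes tested, with 54.4% of the variance, the genotypes separated, and in the second, with 18%, replicate 1 of both genotypes lay apart from the other libraries.

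As background, endothelial cells receive growth and survival signals through VEGF receptors and the TIE receptors, hold together through VE-cadherin and other junction proteins, and take their identity from ETS and SOX family transcription factors. In the fetal liver they form sinusoids, whose lining bears scavenger receptors such as the stabilins. Several of the genes are not restricted to vessels. Pecam1 and Icam2 are also made by platelets and leukocytes, Cd34, Eng and Tek by hematopoietic stem and progenitor cells, and Stab1 and Lyve1 by some macrophages.

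The promoters of 4 genes called higher in IkNull cells on both stromas are shown. Of the genes called on both stromas and held by the reference table, they had the smallest adjusted p. The stretches run from 250 bases before to 50 after the gene start (RefSeq, GRCm38.p6, 300 bases, 5′ to 3′ on the gene's strand). They are those of Kdr at chr5:75978406-75978705 (minus strand), Tie1 at chr4:118489800-118490099 (minus), Tek at chr4:94739039-94739338 (plus) and Ednrb at chr14:103843652-103843951 (minus). The RefSeq starts can differ from the gene positions given below, which came from GENCODE vM21. The stretch of Ednrb lies wholly within its GENCODE position, and the RefSeq start of Tie1 lies inside its own. Capitals mark matches on either strand to 4 motifs. TGGGAA is the core that binding sites of IKAROS and RBPJ share. Sites of GATA factors were searched as AGATAA and sites of ETS factors as CGGAAG. For SOX factors the letters were AACAAT.
Kdr: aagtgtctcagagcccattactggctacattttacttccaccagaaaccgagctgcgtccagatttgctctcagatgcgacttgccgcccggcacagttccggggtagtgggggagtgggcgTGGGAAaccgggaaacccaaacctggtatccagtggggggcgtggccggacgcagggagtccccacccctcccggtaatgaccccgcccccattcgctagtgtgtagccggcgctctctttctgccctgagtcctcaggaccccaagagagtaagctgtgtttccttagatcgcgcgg
Tie1: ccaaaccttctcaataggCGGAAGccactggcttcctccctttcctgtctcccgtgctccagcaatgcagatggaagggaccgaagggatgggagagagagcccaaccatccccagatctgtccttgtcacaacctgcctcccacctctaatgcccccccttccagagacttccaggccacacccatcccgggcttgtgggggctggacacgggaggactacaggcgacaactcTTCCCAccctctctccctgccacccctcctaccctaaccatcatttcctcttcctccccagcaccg
Tek: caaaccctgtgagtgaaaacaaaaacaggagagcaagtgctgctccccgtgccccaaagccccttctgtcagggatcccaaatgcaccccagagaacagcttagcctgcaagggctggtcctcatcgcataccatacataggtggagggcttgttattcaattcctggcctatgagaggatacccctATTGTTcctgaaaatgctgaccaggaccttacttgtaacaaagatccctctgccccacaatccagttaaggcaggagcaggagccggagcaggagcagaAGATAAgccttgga
Ednrb: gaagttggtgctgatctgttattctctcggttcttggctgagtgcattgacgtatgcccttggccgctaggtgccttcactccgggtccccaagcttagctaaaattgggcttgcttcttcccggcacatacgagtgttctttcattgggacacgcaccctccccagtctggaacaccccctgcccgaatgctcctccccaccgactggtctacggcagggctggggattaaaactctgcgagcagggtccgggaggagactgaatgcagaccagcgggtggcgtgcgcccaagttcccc

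Counted from the gene start, the Kdr promoter held TGGGAA once, at base -128, and the Tie1 promoter held it on the opposite strand at base -16, with the ETS letters at base -232. In the Tek promoter the GATA letters stood at base 37, and the SOX letters on the opposite strand at base -63. The Ednrb promoter held none of the 4. No 2 of these matches overlapped. Of the 34 genes, 18 had a promoter in the reference table, 4 of them (22.2%) with TGGGAA, 1 (5.56%) with the GATA letters, 3 (16.7%) with the ETS letters and 3 with the SOX letters. Among all 32851 promoters of this length the shares were 25.6%, 11.2%, 16.9% and 10.7% in the same order. A match is only a run of letters and does not show binding.

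The label of the list was checked against its own genes, which were unevenly detected. VE-cadherin (Cdh5), Kdr and Tie1, used as markers of endothelium, were well above 3 reads in every IkNull library. They had 136 to 482, 385 to 1097 and 44.1 to 107 normalized counts there, in this order. In the IkWT libraries they had 0.62 to 23.7, 45.7 to 65.2 and 1.65 to 7.67. At the other end 12 of the 34 genes were at or near the limit of detection. The transcription factors Sox7 and Sox17 never exceeded 1.90 and 1.26 normalized counts, below 3 reads in each of the 12 libraries. Sox18, Emcn (endomucin), Tmem100 and Robo4 each exceeded 3 reads in 1 library, and Cldn5, the tight junction protein of endothelium, in 2. The surface lectin Clec14a, the endothelial nitric oxide synthase Nos3 and the matrix protein Mmrn2 exceeded it in 3 libraries each, Ramp2 in 4, and Rasip1, which organizes the vessel lumen, in 6. None of these 12 genes passed 11.1 normalized counts, and they fell below the mean of 5 normalized counts that was required for testing. The other 22 of the 34 were tested. Markers of endothelium thus stood among both the detected and the undetected genes.

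**Figure D1:**
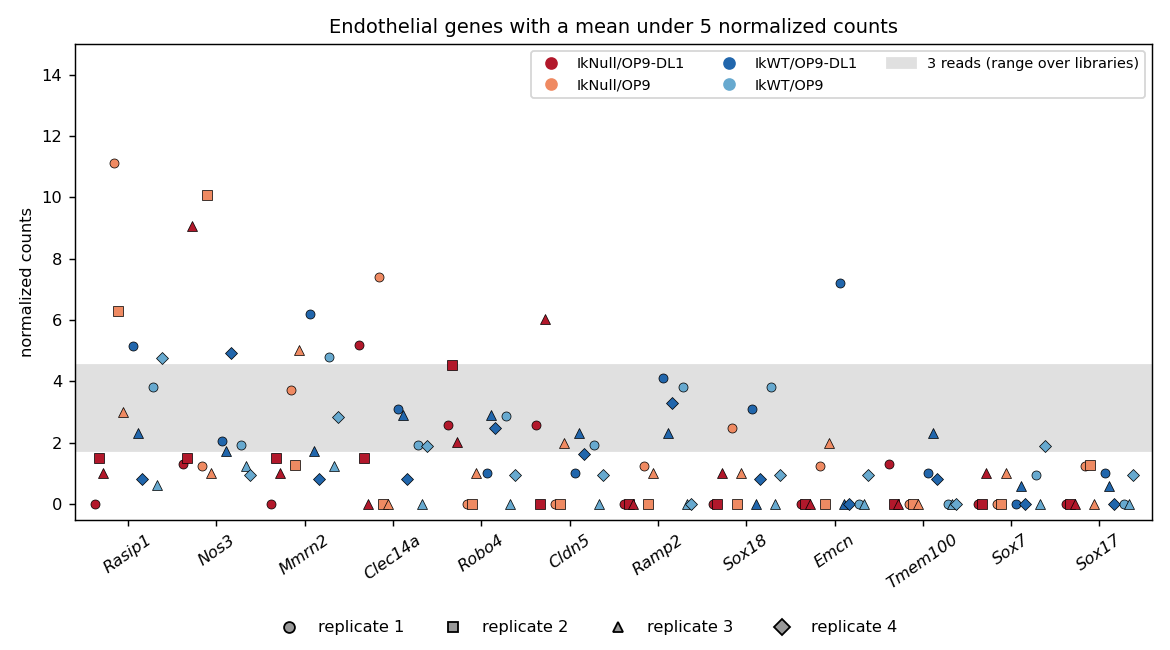
Normalized counts (vertical axis, linear) of the 12 endothelial genes with a mean under 5 in every library. Colours stand for the 4 groups, symbols for the replicate number, and the grey band is the range over libraries of the value of 3 reads (1.74 to 4.53). The highest point is Rasip1 at 11.1, and Sox7 and Sox17 do not pass 1.90.

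Loss of IKAROS went with higher levels of genes from the VEGF and TIE receptor families and of VE-cadherin on both stromas. In IkNull/OP9-DL1 against IkWT/OP9-DL1 cells, 11 of the 34 genes, all among the 22 tested, were called higher and 0 lower. A gene counted as called when its limma log2 fold change reached 0.8 in either direction and its p, after Benjamini-Hochberg correction across the 13769 genes tested, was below 0.05. Over all genes tested, 9.41% were called higher and 4.65% lower. In IkNull/OP9 against IkWT/OP9 cells, 11 were called higher and 0 lower, against 6.69% and 2.83% of all genes tested. The calls overlapped in 10 genes, while 5.98% of all genes tested were called higher on both stromas. The remaining genes comprised 10 that were tested and called on neither stroma and the 12 below the minimum. Of the 22 tested, 20 reached a mean of 5 in the IkWT libraries alone, while Flt1 (3.69) and Aplnr (4.13) passed the minimum through the IkNull libraries. Flt1 and Aplnr are included in the calls and medians given here, which therefore rest in part on that selection. The median log2 fold change of the 22 was 1.61 on OP9-DL1, against 0.03 over all genes tested, and 1.79 on OP9, against 0.00. On each stroma, 19 of the 22 lay above 0 and 14 had an unadjusted limma p under 0.05. Over all 13769 genes, 2247 upward and 902 downward had such a p on OP9-DL1 and also reached 0.8 in log2. On OP9 they were 1871 and 727. The 14 were counted without the limit of 0.8. The list was chosen with earlier results of these data known, so it is no independent sample of genes.

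The number of calls depended on single libraries. On OP9-DL1 it was 5 without IkNull/OP9-DL1 replicate 2 or without IkWT/OP9-DL1 replicate 4, 6 without IkNull/OP9-DL1 replicate 3 and 13 without IkNull/OP9-DL1 replicate 1. The share of all genes called higher moved with it, to 3.93%, 5.17%, 6.09% and 14.1% in the same order. On OP9 it was 6 without IkNull/OP9 replicate 2 (2.99% of all genes) and 7 without IkWT/OP9 replicate 1 (4.19%). With edgeR on the 10 libraries whose reads could be recovered, 7 were called on each stroma (5.75% and 4% of all genes). When library totals were made equal, the split over all genes became 5.22% higher and 11.5% lower on OP9-DL1 and 4.21% and 6.23% on OP9, and 8 and 7 of the endothelial genes were called higher. The libraries of a culture varied together on both stromas, so the comparison on one stroma is no independent evidence for the other, and with 3 libraries against 3 an exact permutation test of a single gene cannot give a two-sided p under 0.1. In bulk RNA, more cells of a type and more RNA per cell cannot be told apart.

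**Figure D2:**
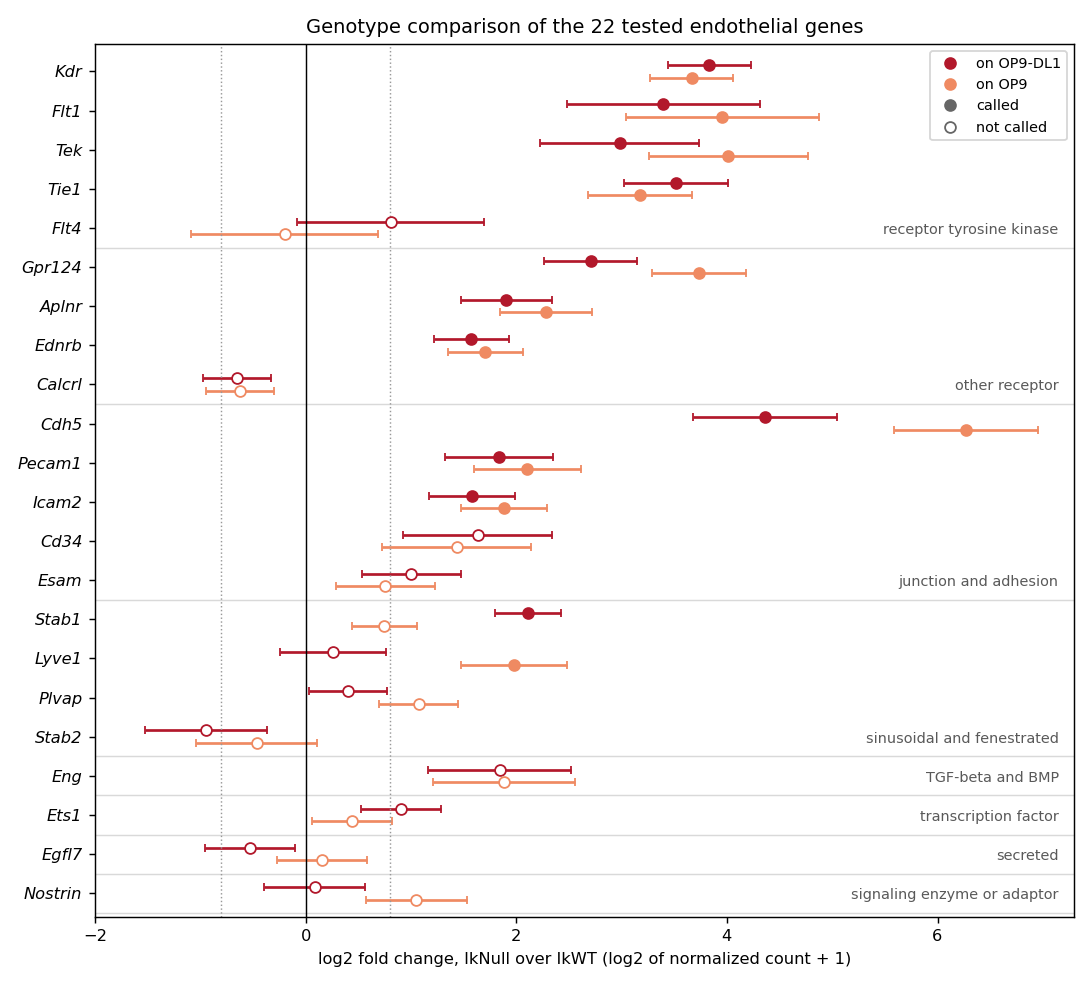
Log2 fold change, IkNull over IkWT, on the log2(normalized count + 1) scale (horizontal axis) for the 22 tested endothelial genes, ordered by role; dark red is OP9-DL1 and orange OP9, bars are standard errors from limma, and filled points are called. Dotted lines mark 0.8 in either direction. Cdh5 on OP9 lies farthest right at 6.27, and Calcrl and Stab2 lie left of 0 on both stromas.

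Of 5 receptor tyrosine kinases of endothelium, 4 were higher in IkNull cells on both stromas. Among these, Flt1 passed the minimum for testing through the IkNull libraries only. Kdr, which encodes VEGF receptor 2, the main signaling receptor for VEGF-A (chr5:75932827-75978458), had 1081, 998 and 464 normalized counts in IkNull/OP9-DL1 and 1097, 825 and 385 in IkNull/OP9 libraries, against 64.0, 53.8 and 47.7 in IkWT/OP9-DL1 and 65.2, 54.5 and 45.7 in IkWT/OP9 libraries. All 6 IkNull libraries lay above all 6 IkWT libraries, and replicate 3 was the lowest of the IkNull cultures on both stromas. The group means were 848 ± 335 and 769 ± 359 in IkNull cells on OP9-DL1 and OP9, and 55.2 ± 8.20 and 55.1 ± 9.76 in IkWT cells (SD, n = 3). The log2 fold change was 3.83 ± 0.39 on OP9-DL1 (standard error, limma adjusted p = 0.000145) and 3.66 ± 0.39 on OP9 (limma adjusted p = 0.00024).

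Tie1, an orphan receptor that modulates angiopoietin signaling (chr4:118471191-118490061), had 44.1, 107 and 45.3 normalized counts in IkNull/OP9-DL1 and 48.2, 92.1 and 85.4 in IkNull/OP9 libraries, against 6.19, 6.94 and 1.65 in IkWT/OP9-DL1 and 7.67, 6.20 and 7.62 in IkWT/OP9 libraries. The genotypes did not overlap, and replicate 2 was highest among the IkNull libraries on each stroma. The log2 fold changes were 3.52 ± 0.49 on OP9-DL1 and 3.17 ± 0.49 on OP9 (limma adjusted p = 0.00108 and 0.00239). Tek, which encodes the angiopoietin receptor TIE2 (chr4:94739289-94874976), had 19.5, 66.4 and 109 normalized counts in IkNull/OP9-DL1 and 28.4, 71.9 and 206 in IkNull/OP9 libraries, against 9.28, 4.05 and 4.94 in IkWT/OP9-DL1 and 6.71, 1.86 and 3.81 in IkWT/OP9 libraries. Here too all IkNull libraries were above all IkWT libraries, but the IkNull cultures differed widely, with replicate 1 lowest and replicate 3 highest. Its log2 fold changes were 2.98 ± 0.75 and 4.01 ± 0.75 on OP9-DL1 and OP9 (limma adjusted p = 0.0226 and 0.00687).

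Flt1, which encodes VEGF receptor 1, a high-affinity receptor that also acts as a trap for VEGF-A (chr5:147561604-147726011), had 9.08, 119 and 63.5 normalized counts in IkNull/OP9-DL1 and 21, 125 and 128 in IkNull/OP9 libraries, against 3.09, 5.21 and 1.65 in IkWT/OP9-DL1 and 2.88, 7.43 and 1.90 in IkWT/OP9 libraries. Replicate 1 was far below the other IkNull cultures on both stromas, yet above every IkWT library. Its log2 fold changes of 3.39 ± 0.92 and 3.96 ± 0.92 passed on both stromas (limma adjusted p = 0.0291 and 0.0198). The IkWT values correspond to 2 to 12 reads of Flt1 and 3 to 9 reads of Tek, so their fold changes are set by few reads on the IkWT side. Flt4, which encodes VEGF receptor 3 of lymphatic endothelium, ranged from 0 to 27.2 in IkNull and from 3.84 to 8.23 in IkWT libraries and was not called (log2 fold change 0.81 on OP9-DL1 and -0.20 on OP9, and on OP9 0.93 without IkNull/OP9 replicate 1).

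**Figure D3:**
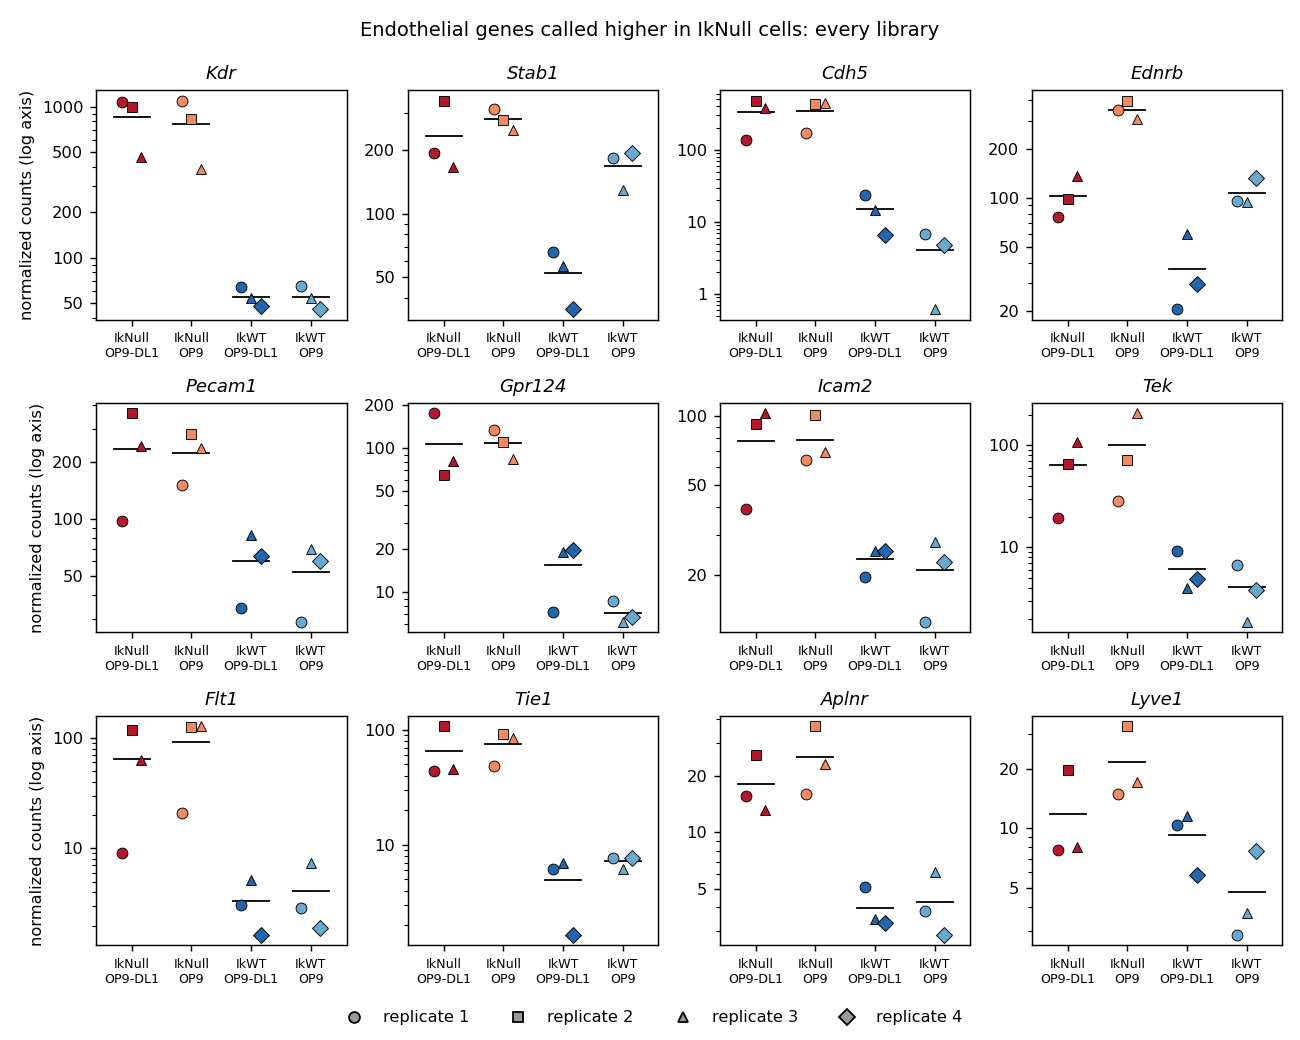
Normalized counts (vertical axes, log scale, each with its own range) of the 12 endothelial genes called higher in IkNull cells on at least 1 stroma, in every library by group; symbols give the replicate number and horizontal lines the mean of 3 libraries. In 9 of the 12 genes all 6 IkNull libraries lie above all 6 IkWT libraries, and the exceptions are Stab1, Ednrb and Lyve1. Flt1 and Aplnr, among the 9, passed the minimum for testing through the IkNull libraries only.

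Of 7 junction and adhesion genes, 3 were higher on both stromas. Cdh5, which encodes VE-cadherin, the adhesion protein of endothelial junctions (chr8:104101625-104144511), had 136, 482 and 378 normalized counts in IkNull/OP9-DL1 and 172, 434 and 439 in IkNull/OP9 libraries, against 23.7, 14.46 and 6.58 in IkWT/OP9-DL1 and 6.71, 0.62 and 4.76 in IkWT/OP9 libraries. The lowest IkNull library was several times above the highest IkWT library. The means were 332 ± 177 and 348 ± 153 in IkNull cells on OP9-DL1 and OP9, and 14.9 ± 8.58 and 4.03 ± 3.11 in IkWT cells (SD, n = 3). Its log2 fold change was 4.36 ± 0.69 on OP9-DL1 (limma adjusted p = 0.00207) and 6.27 ± 0.69 on OP9 (limma adjusted p = 0.000256). The value on OP9 rests in part on 1 IkWT library at a single read, and over the alternative settings it lay between 5.24 and 7.16.

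Pecam1, an adhesion molecule of endothelium, platelets and leukocytes (chr11:106654217-106750628), had 97.3, 361 and 244 normalized counts in IkNull/OP9-DL1 and 152, 280 and 238 in IkNull/OP9 libraries, against 34, 82.7 and 64.2 in IkWT/OP9-DL1 and 28.8, 70.0 and 60.0 in IkWT/OP9 libraries. Replicate 1 was the lowest in both genotypes and on both stromas, and the genotypes did not overlap. Pecam1 rose by 1.84 ± 0.51 in log2 on OP9-DL1 and by 2.11 ± 0.51 on OP9 (limma adjusted p = 0.0318 and 0.0238). Icam2, a ligand of leukocyte integrins (chr11:106377656-106388075), had 38.9, 92.1 and 103 normalized counts in IkNull/OP9-DL1 and 64.2, 101 and 69.3 in IkNull/OP9 libraries, against 19.6, 25.5 and 25.5 in IkWT/OP9-DL1 and 12.5, 27.9 and 22.8 in IkWT/OP9 libraries. Replicate 1 was again the lowest culture of either genotype. Icam2 rose by 1.58 ± 0.41 and 1.89 ± 0.41 in log2 (limma adjusted p = 0.0246 and 0.0144; treating cultures as a random block gave 0.0559 on OP9-DL1).

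The other junction and adhesion genes were not called without a replicate block. Cd34, a sialomucin of endothelium and hematopoietic progenitors, had 36.3, 157 and 102 normalized counts in IkNull/OP9-DL1 and 85.3, 185 and 113 in IkNull/OP9 libraries, against 13.4, 31.2 and 42.8 in IkWT/OP9-DL1 and 14.4, 74.3 and 79.0 in IkWT/OP9 libraries. On OP9 the genotypes did not overlap, and on OP9-DL1 IkNull replicate 1 lay within the IkWT range. The log2 fold changes were 1.63 ± 0.70 and 1.43 ± 0.70 (limma adjusted p = 0.126 and 0.202). Esam, a junction molecule of endothelium and platelets, had 50.6, 43.8 and 29.2 normalized counts in IkNull/OP9-DL1 and 74.1, 44.1 and 39.2 in IkNull/OP9 libraries, against 23.7, 19.1 and 16.5 in IkWT/OP9-DL1 and 44.1, 12.4 and 45.7 in IkWT/OP9 libraries. Its log2 fold changes were 1.00 ± 0.47 and 0.76 ± 0.47 (limma adjusted p = 0.157 and 0.31). The genotypes overlapped on OP9 and not on OP9-DL1. Emcn and Cldn5 were below the minimum.

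Of 7 receptors outside the tyrosine kinases, Gpr124, Aplnr and Ednrb were higher on both stromas. Among these, Aplnr passed the minimum for testing through the IkNull libraries only. Gpr124, an adhesion receptor needed for vessel growth into the brain (chr8:27085583-27123436), had 174, 64.9 and 81.6 normalized counts in IkNull/OP9-DL1 and 133, 110 and 83.4 in IkNull/OP9 libraries, against 7.22, 19.1 and 19.7 in IkWT/OP9-DL1 and 8.63, 6.20 and 6.66 in IkWT/OP9 libraries. All IkNull libraries were above all IkWT libraries, and in contrast to most of the called genes replicate 1 was the highest IkNull culture. Its log2 fold changes were 2.71 ± 0.44 and 3.74 ± 0.44 (limma adjusted p = 0.00265 and 0.00043). The exons of Gpr124 overlap those of Brf2 on the other strand, and the strand setting of the counting is not given in the sources used here, so reads of the 2 genes may not have been separated.

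Aplnr, the receptor of apelin (chr2:85136225-85139923), had 15.6, 25.7 and 13.1 normalized counts in IkNull/OP9-DL1 and 16.1, 36.6 and 23.1 in IkNull/OP9 libraries, against 5.16, 3.47 and 3.29 in IkWT/OP9-DL1 and 3.84, 6.20 and 2.86 in IkWT/OP9 libraries. Levels were low, at 3 to 10 reads in the IkWT libraries, and the genotypes did not overlap. The log2 fold changes were 1.91 ± 0.43 on OP9-DL1 and 2.28 ± 0.43 on OP9 (limma adjusted p = 0.0144 and 0.00719). Ednrb, which encodes the endothelin B receptor (chr14:103814625-103844402), had 76.6, 98.1 and 136 normalized counts in IkNull/OP9-DL1 and 347, 399 and 307 in IkNull/OP9 libraries, against 20.6, 59.6 and 29.6 in IkWT/OP9-DL1 and 95.9, 94.2 and 133 in IkWT/OP9 libraries. On each stroma the IkNull libraries lay above the IkWT libraries, and in each genotype the OP9 libraries lay above those on OP9-DL1. The log2 fold changes between genotypes were 1.57 ± 0.36 and 1.71 ± 0.36 (limma adjusted p = 0.014 and 0.0119). Neither call held with the culture as a random block (limma adjusted p = 0.083 and 0.0777).

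Calcrl, the receptor for adrenomedullin once it pairs with the protein of Ramp2, was the most abundant of the 34 genes per length of exon in each group. Its mean was 124 and 136 normalized counts per kb in IkNull cells on OP9-DL1 and OP9, and 201 and 215 in IkWT cells. The next was Kdr in IkNull cells, at 93.9 and 85.2 per kb, and Egfl7 in IkWT cells, at 32.0 and 27.1 per kb. Calcrl had 535, 773 and 510 normalized counts in IkNull/OP9-DL1 and 607, 820 and 564 in IkNull/OP9 libraries, against 599, 1028 and 1322 in IkWT/OP9-DL1 and 679, 1133 and 1340 in IkWT/OP9 libraries. The ranges overlapped on both stromas, and its log2 fold changes of -0.65 ± 0.32 and -0.63 ± 0.32 were not called (limma adjusted p = 0.181 and 0.225). Its partner Ramp2 was between 0 and 4.13 normalized counts and Robo4, a guidance receptor of endothelium, between 0 and 4.53, so neither was tested.

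The 4 genes of sinusoidal and fenestrated endothelium did not move together. Stab1, a scavenger receptor of sinusoids and of some macrophages (chr14:31139013-31168641), had 195, 344 and 166 normalized counts in IkNull/OP9-DL1 and 315, 279 and 250 in IkNull/OP9 libraries, against 66.0, 56.7 and 35.4 in IkWT/OP9-DL1 and 183, 130 and 193 in IkWT/OP9 libraries. The genotypes did not overlap on either stroma, but the distance was larger on OP9-DL1, where the IkWT libraries were low. Stab1 rose by 2.11 ± 0.31 in log2 on OP9-DL1 (limma adjusted p = 0.00149), while the value on OP9, 0.75 ± 0.31, was not called (limma adjusted p = 0.14). Exons of Stab1 overlap those of Nt5dc2 on the other strand.

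Lyve1, a hyaluronan receptor of lymphatic and sinusoidal endothelium and of some macrophages (chr7:110850607-110863239), had 7.79, 19.6 and 8.06 normalized counts in IkNull/OP9-DL1 and 14.8, 32.8 and 17.1 in IkNull/OP9 libraries, against 10.3, 11.6 and 5.76 in IkWT/OP9-DL1 and 2.88, 3.72 and 7.62 in IkWT/OP9 libraries. The genotypes overlapped on OP9-DL1 and not on OP9. Lyve1 rose on OP9 by 1.98 ± 0.50 in log2 (limma adjusted p = 0.029; treating cultures as a random block gave 0.107) and had 0.26 ± 0.50 on OP9-DL1 (limma adjusted p = 0.749). Plvap, a protein of the diaphragms of fenestrae, ranged from 28.4 to 71.9 in IkNull and from 18 to 39.2 in IkWT libraries, with log2 fold changes of 0.40 ± 0.37 and 1.07 ± 0.37. Stab2, the second stabilin of sinusoids, ranged from 5.02 to 16.6 in IkNull and from 6.20 to 34 in IkWT libraries, with log2 fold changes of -0.95 ± 0.58 and -0.47 ± 0.58. Neither was called on either stroma (limma adjusted p from 0.0863 to 0.623).

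None of the genes of the remaining roles was called without a replicate block. Eng, which encodes endoglin, a co-receptor for TGF-beta and BMP9, had 72.7, 255 and 315 normalized counts in IkNull/OP9-DL1 and 122, 280 and 318 in IkNull/OP9 libraries, against 23.7, 92.6 and 55.1 in IkWT/OP9-DL1 and 27.8, 71.9 and 104 in IkWT/OP9 libraries. Its log2 fold changes were 1.84 ± 0.68 and 1.88 ± 0.68 (limma adjusted p = 0.0808 and 0.0946). Replicate 1 was lowest in both genotypes, and the genotypes separated on OP9 only. Ets1, a transcription factor of endothelium and lymphocytes, had 144, 302 and 199 normalized counts in IkNull/OP9-DL1 and 142, 208 and 223 in IkNull/OP9 libraries, against 77.4, 173 and 97.1 in IkWT/OP9-DL1 and 91.1, 195 and 149 in IkWT/OP9 libraries. The ranges overlapped on both stromas (log2 fold changes 0.91 ± 0.38 and 0.44 ± 0.38, limma adjusted p = 0.118 and 0.468).

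Egfl7, a secreted protein of the vessel wall and host gene of a microRNA, had 63.6, 61.9 and 111 normalized counts in IkNull/OP9-DL1 and 106, 102 and 82.4 in IkNull/OP9 libraries, against 83.6, 162 and 97.9 in IkWT/OP9-DL1 and 42.2, 139 and 109 in IkWT/OP9 libraries. The groups overlapped throughout, with log2 fold changes of -0.53 ± 0.43 and 0.15 ± 0.43, and the sign on OP9 turned to -0.36 without IkWT/OP9 replicate 1. Nostrin, an adaptor that traffics nitric oxide synthase, ranged from 10.4 to 33.2 in IkNull and from 6.58 to 24.3 in IkWT libraries, with log2 fold changes of 0.09 ± 0.48 and 1.05 ± 0.48 (limma adjusted p = 0.919 and 0.174). The sign on OP9-DL1 turned without IkNull/OP9-DL1 replicate 2 (-0.11) or IkWT/OP9-DL1 replicate 4 (-0.34).

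The groups separated in more genes than were called. On OP9-DL1, 12 of the 34 genes, all among the 22 tested, had every IkNull library above every IkWT library, and 0 of the 22 had the reverse. Ramp2, which was not tested, had every IkNull library, all at 0, below every IkWT library, at 4.13, 2.31 and 3.29. Of all genes tested, 17.1% and 16.9% separated in those directions. On OP9, 16 of the 34, all among the 22 tested, separated upward, against 17.1% of all genes tested. In 9 of the 34 genes, all among the 22 tested, the 6 IkNull libraries were above the 6 IkWT libraries, which held for 9.73% of all genes tested. Flt1 and Aplnr are in each of these upward counts. Both passed the minimum for testing through the IkNull libraries only, so the counts rest in part on that selection.

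The IkNull cultures differed in a recurrent order. Among the 12 called genes, replicate 1 had the lowest mean over both stromas in 9, and replicate 2 the highest in 9. Kdr and Gpr124 ran the other way, with replicate 1 highest and replicate 3 lowest. Without replicate 1 of both genotypes, a choice made after seeing the data, 13 genes were called higher on each stroma, and Calcrl was called lower on both. Over all genes 17.1% were then called higher and 8.42% lower on OP9-DL1, and 14.3% and 5.32% on OP9.

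Calls differed in how they held under the 29 alternative settings of scaling, filtering, tool and libraries. Those of Kdr, Cdh5, Tie1 and Gpr124 on both stromas and that of Stab1 on OP9-DL1 held under all of them. On OP9-DL1, leaving out IkNull replicate 2 ended the calls of Pecam1, Tek, Flt1, Icam2, Aplnr and Ednrb (limma adjusted p from 0.0509 to 0.146), and leaving out IkWT replicate 4 ended the same 6 (0.0527 to 0.0944 by limma). Without IkNull/OP9-DL1 replicate 3 those of Pecam1, Tek, Flt1, Icam2 and Ednrb were lost (0.0531 to 0.0911 by limma), without IkWT/OP9-DL1 replicate 1 those of Pecam1, Flt1 and Icam2 (0.0747 to 0.113), and without IkWT/OP9-DL1 replicate 3 that of Tek (0.0607). On OP9, the calls of Pecam1, Flt1, Lyve1, Icam2 and Ednrb were lost without IkNull replicate 2 (0.06 to 0.14 by limma), and those of Pecam1, Flt1, Lyve1 and Icam2 without IkWT replicate 1 (0.0556 to 0.0989). Without IkNull/OP9 replicate 3 Pecam1, Flt1 and Lyve1 were not called (0.0632 to 0.0744 by limma), without IkWT/OP9 replicate 4 Pecam1 and Flt1 (0.0554 and 0.0758), and without IkWT/OP9 replicate 3 Lyve1 (0.0753). Without the IkWT replicate 4 culture, Pecam1, Tek, Flt1, Lyve1, Icam2 and Aplnr were not called on OP9 (0.0503 to 0.109 by limma). On OP9-DL1, leaving out the IkWT replicate 3 culture also ended the calls of Flt1 and Icam2, and the IkWT replicate 1 culture that of Ednrb (0.0516 to 0.0555). With the culture as a random block, Ednrb was not called on either stroma, Icam2 not on OP9-DL1 and Lyve1 not on OP9 (0.0559 to 0.107 by limma). EdgeR did not call Pecam1, Flt1 and Icam2 on either stroma, Ednrb on OP9-DL1 and Lyve1 on OP9 (edgeR adjusted p from 0.0512 to 0.103). With the same total, Pecam1, Icam2 and Ednrb were not called on either stroma and Lyve1 not on OP9 (0.0531 to 0.112 by limma). Without the filter Lyve1 was not called on OP9 (0.0504 by limma). The direction of each of these 7 genes was upward under every setting on the stromas where it was called.

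Few of the genes were called between stromas. In IkNull/OP9-DL1 against IkNull/OP9 cells limma called 0 of the 22 tested, against 0.0145% of all genes called higher and 0% called lower, and 1 had an unadjusted p under 0.05. In IkWT/OP9-DL1 against IkWT/OP9 cells it called 0, against 0.00726% and 0% of all genes, and 3 had an unadjusted p under 0.05. The median log2 fold changes of the 22 were -0.28 and 0.08, against -0.01 and 0.01 over all genes tested. Libraries of the same number and genotype varied together across stromas, and once the replicate number entered the fit as a block, Ednrb was called lower in both genotypes, Stab1 lower in IkWT cells and Cdh5 higher in IkWT cells. With the block, 0.508% of all genes were called higher and 0.225% lower in IkNull cells, and 0.45% and 1.02% in IkWT cells.

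Ednrb was lower on OP9-DL1 in all 6 cultures. Its mean was 104 ± 30.1 in IkNull/OP9-DL1, against 351 ± 45.7 in IkNull/OP9 cells, and 36.6 ± 20.4 in IkWT/OP9-DL1, against 108 ± 22.1 in IkWT/OP9 cells (SD, n = 3). The log2 fold change was -1.78 ± 0.27 in IkNull cells (limma adjusted p = 0.00649 with the replicate block and 0.676 without it) and -1.65 ± 0.27 in IkWT cells (limma adjusted p = 0.00556 with the block and 0.88 without it). Both standard errors are from the fit with the block. DESeq2 on the 10 libraries with recovered reads also called 1 of the genes lower in each genotype, Ednrb in IkNull and Stab1 in IkWT cells. It called 0.00726% of all genes lower in IkNull cells and 0.0291% in IkWT cells. Ednrb was the only gene of the 22 whose groups did not overlap between stromas in IkNull cells, where 2.3% of all genes tested separated upward and 1.71% downward. In IkWT cells Ednrb and Stab1 separated, against 3.67% of all genes tested upward and 2.51% downward.

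In IkWT cells Stab1 had a mean of 52.7 ± 15.7 on OP9-DL1 and 169 ± 33.9 on OP9, which is -1.69 ± 0.22 in log2 (limma adjusted p = 0.00137 with the replicate block and 0.477 without it). In IkNull cells the means were 235 ± 95.6 and 281 ± 32.5, which is -0.33 ± 0.22 in log2 (limma adjusted p = 0.555 with the block), and replicate 2 lay above 0. The standard errors of these stroma differences are from the fit with the block, and that of the interaction, given next, from the fit without it. The interaction of genotype and stroma for Stab1 was 1.36 ± 0.44 in log2 (limma adjusted p = 1, and 0.21 with the replicate block), so a difference between the genotypes in this response was not called. The summed level of 15 macrophage genes was lower on OP9-DL1 in the same 5 of the 6 cultures as Stab1, and its part in the result was not tested.

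Cdh5 in IkWT cells was called with the block only (1.78 ± 0.38, limma adjusted p = 0.0248, and 1 without it), with 23.7, 14.46 and 6.58 normalized counts on OP9-DL1, against 6.71, 0.62 and 4.76 on OP9. These were 23, 25 and 8 reads on OP9-DL1 and 7, 1 and 5 reads on OP9. In IkNull cells the log2 difference was -0.13. The standard error of the IkWT value is from the fit with the block. For the interaction of genotype and stroma limma called 0 of the 22 with and without the block, as it did over all genes (0%). Without the block 2 of the 22, Stab1 and Lyve1 (-1.72 in log2), had an unadjusted p under 0.05. With the block 6 did, namely Stab1, Cdh5, Lyve1, Tek, Ets1 and Gpr124. Over all 13769 genes, 44 upward and 11 downward had such a p without the block and also reached the log2 limit for a call. With the block they were 271 and 71. The 2 and the 6 were counted without that limit, so they cannot be compared directly with the counts over all genes. Calls on a single stroma, such as those of Stab1 and Lyve1, therefore do not show that the genotype effect differed between stromas.

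**Figure D4:**
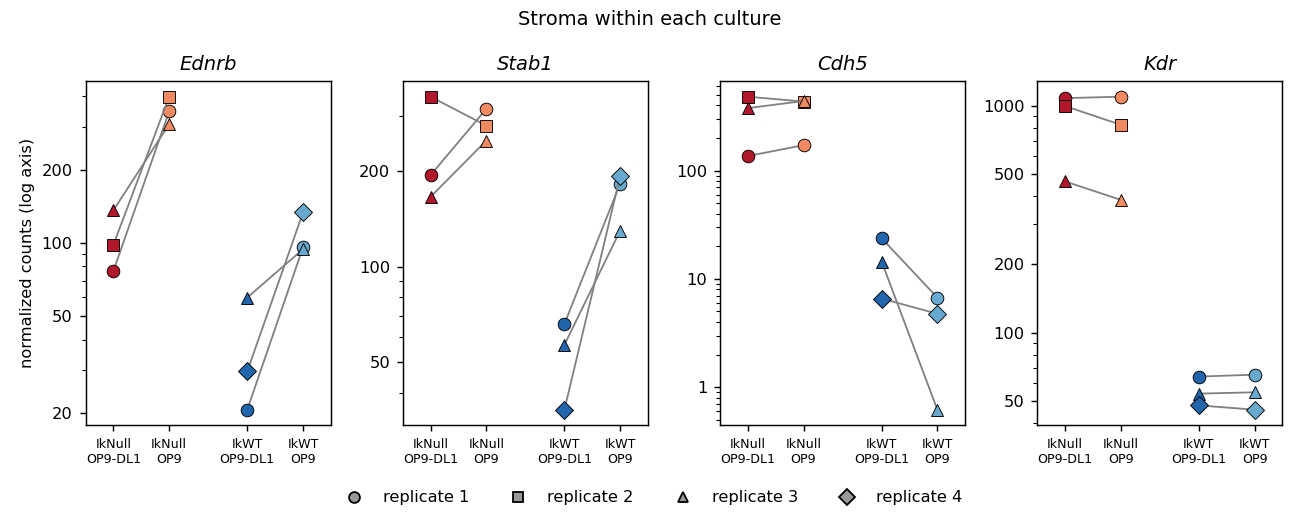
Normalized counts (vertical axes, log scale) of Ednrb, Stab1, Cdh5 and Kdr on OP9-DL1 and OP9, with lines joining the libraries of a culture; symbols give the replicate number. Ednrb is lower on OP9-DL1 in every culture, Stab1 in the 3 IkWT cultures and in 2 of 3 IkNull cultures, and the lines of Kdr run nearly level.

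Ligands and partners of these receptors were examined in a separate list of 49 genes of vascular signaling, of which 38 were tested. On OP9-DL1 limma called 9 of them higher and 1 lower in IkNull cells, against 9.41% and 4.65% of all genes. On OP9 it called 8 higher and 0 lower, against 6.69% and 2.83%, with medians over the tested genes of 1.16 and 1.07 in log2 on OP9-DL1 and OP9. Fcgr2b, an inhibitory receptor for IgG of sinusoidal endothelium and leukocytes, rose by 3.64 and 3.32 in log2 (limma adjusted p = 0.00108 and 0.00222). Ece1, the enzyme that activates the ligand of Ednrb, rose by 2.16 and 1.95 (0.00287 and 0.00624 by limma), and Nrp2, a VEGF co-receptor, by 2.70 and 2.49 (0.00597 and 0.0111). Adm, which encodes the Calcrl ligand adrenomedullin, had 13.0, 39.3 and 23.2 normalized counts in IkNull/OP9-DL1 and 19.8, 34.1 and 11.1 in IkNull/OP9 libraries, against 4.13, 6.94 and 7.41 in IkWT/OP9-DL1 and 0.959, 1.24 and 2.86 in IkWT/OP9 libraries. Its log2 fold changes were 1.77 and 3.01 (limma adjusted p = 0.0415 and 0.00492).

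Further genes of that list were named after their values were seen. Vegfa, the ligand of the receptors of Kdr and Flt1, had 697 to 1067 normalized counts in the 6 IkNull and 325 to 571 in the 6 IkWT libraries, and rose by 1.18 and 1.31 in log2 (limma adjusted p = 0.00878 and 0.00613). Angpt1, the activating ligand of Tek, had 14.3 to 60.3 in IkNull and 8.25 to 22.2 in IkWT libraries and was not called (limma adjusted p = 0.182 and 0.0547). The other called genes were Fli1, S1pr1 and Mcam on both stromas and Gata2 on OP9-DL1. The gene called lower was Hey2, a NOTCH target of arterial endothelium, at -1.38 on OP9-DL1 (limma adjusted p = 0.0295) and -1.14 on OP9 (limma adjusted p = 0.072).

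Markers of other cell types moved with the genotype beside the endothelial genes, and their counts are to be read against the same shares of all genes. Of 15 megakaryocyte and platelet genes, 12 were higher in IkNull cells on OP9-DL1 and 11 on OP9, led by Itgb3, a chain of the platelet fibrinogen receptor (log2 fold changes 4.63 and 4.40, limma adjusted p = 1.86e-05 and 2.88e-05). Treml1, Pf4 and Selp, all of platelets, rose by 3.28 to 3.97 on OP9-DL1 and 3.48 to 3.81 on OP9. Their summed level was 4034 to 9955 normalized counts in IkNull/OP9-DL1 and 5921 to 10955 in IkNull/OP9 libraries, against 753 to 991 in IkWT/OP9-DL1 and 1021 to 1508 in IkWT/OP9 libraries. Replicate 3 was the lowest IkNull culture for this sum, as it was for Kdr. The 34 endothelial genes summed to 2863 to 4478 and 3631 to 4562 in IkNull cells on OP9-DL1 and OP9, against 1218 to 1960 and 1402 to 2392 in IkWT cells. A few abundant genes weigh heavily in these sums. Calcrl, which was not called, held 1322 of 1960 in IkWT/OP9-DL1 replicate 4. Kdr held 1081 of 2863 in IkNull/OP9-DL1 replicate 1.

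Of 15 macrophage genes, 13 were tested. On OP9-DL1 4 rose and 1 fell, and on OP9 2 rose and 1 fell. Mrc1, the mannose receptor of macrophages and sinusoids, rose by 2.95 on each stroma (limma adjusted p = 0.00247 and 0.003), and Cd5l, a secreted macrophage protein, fell by 2.53 and 3.78 (limma adjusted p = 0.0169 and 0.00265). C1qa, a complement subunit, rose by 1.84 and 1.69 (limma adjusted p = 0.0172 and 0.0312), and Cd68, a lysosomal protein, by 1.96 on OP9-DL1 (limma adjusted p = 0.0221). The summed level was 7280 to 25534 in IkNull/OP9-DL1 and 12395 to 25455 in IkNull/OP9 libraries, against 2002 to 6805 in IkWT/OP9-DL1 and 3361 to 11681 in IkWT/OP9 libraries. Replicate 1 was lowest and replicate 2 highest among the IkNull cultures on both stromas. Of the 12 called endothelial genes, 9 had replicate 1 lowest and 9 had replicate 2 highest in the mean over both stromas. On a single stroma the order often differed, as in Cdh5 and Flt1, whose highest IkNull/OP9 library was replicate 3. Of 14 stromal genes, 13 were tested and 2, Fn1 and Postn, were higher on OP9-DL1 and 0 on OP9. Their sums were 3104 to 4534 and 2562 to 3066 in IkNull cells on OP9-DL1 and OP9, against 1719 to 2275 and 1825 to 2086 in IkWT cells.

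Of 12 erythroid genes none was called on either stroma (median log2 fold change -0.25 on OP9-DL1 and -0.31 on OP9), and of 10 hepatocyte genes none. Of 11 neutrophil genes limma called none without a block, with medians of 1.16 and 1.22. Their summed level was 23388 to 86515 in IkNull/OP9-DL1 and 41097 to 89578 in IkNull/OP9 libraries, against 6514 to 29397 in IkWT/OP9-DL1 and 9686 to 52125 in IkWT/OP9 libraries. Here too replicate 1 was the lowest and replicate 2 the highest IkNull culture on both stromas. Of 10 tested mast cell genes 3 were higher on each stroma, the proteases Mcpt1 and Mcpt2 on both and Mcpt4 on OP9 among them, and 1, Gzmb, was lower on OP9. Of 12 tested progenitor genes 3, Meis1, Mycn and Myct1, were higher on each stroma, and of 5 tested lymphoid genes Il7r was higher and Cd247 lower on OP9-DL1. The share of any of these cell types in the endothelial result was not tested.

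**Figure D5:**
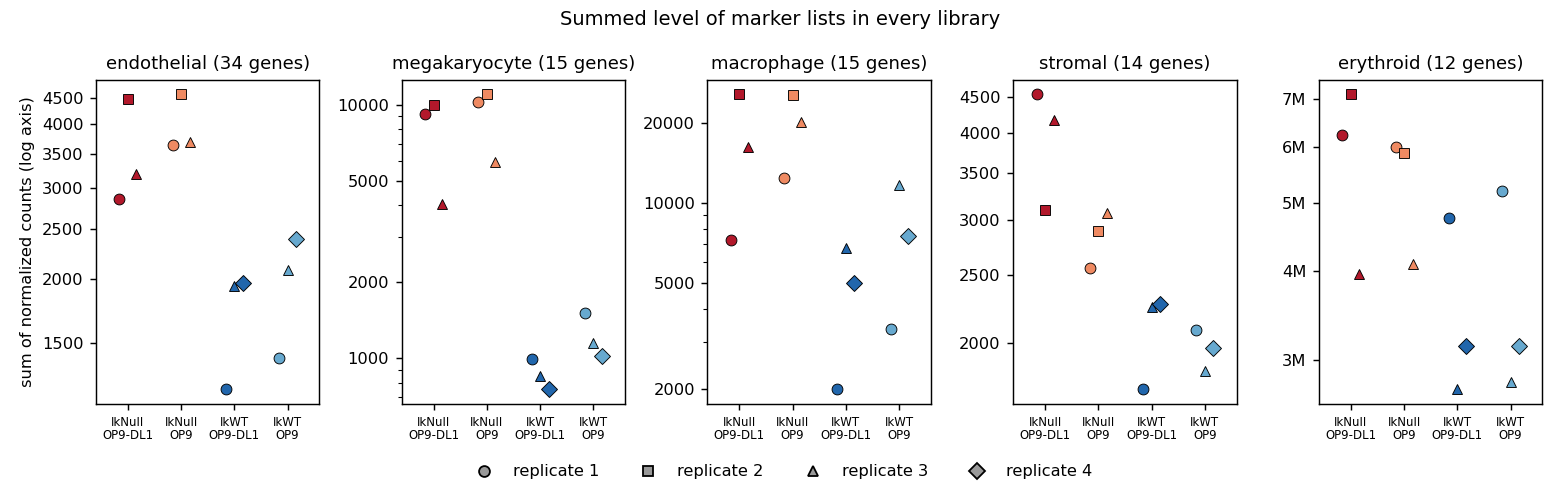
Sum of normalized counts (vertical axes, log scale; M is mega) over the 34 endothelial genes and over 4 marker lists in every library, by group; symbols give the replicate number. The megakaryocyte sum lies at 4034 or more in IkNull and at 1508 or less in IkWT libraries, while the erythroid sums of the genotypes overlap. The endothelial sum is weighted toward Calcrl and Kdr, its genes with the highest means over all libraries.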

How the data were processed

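The study's methods state that reads from a HiSeq2000 were aligned untrimmed to GRCm38/mm10 by TopHat and that htseq-count gave the counts. The submitters' processing notes list CASAVA 1.8 and the aligner TopHat2 2.0.9, with HTSeq 0.5.3 as well as DESeq2 1.0.19. Neither the strand setting nor the annotation is given in the sources used here. The deposited signal values are gene counts after division by the authors' size factors (per library, the median ratio of a gene's count to its geometric mean). Tables of the authors' own comparisons, which hold group means, fold changes and p-values, were not used.

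Genes averaging 5 normalized counts or more (13769 of 38250) were fitted on log2(normalized count + 1) with limma 3.58.1 in R 4.3.3 (lmFit, contrasts, eBayes with trend), with 4 group means over all 12 libraries. The pseudocount of 1 understates the change of low genes. Calls used the study's thresholds of 0.8 in log2 and 0.05 for the adjusted p. Positions came from GENCODE vM21, in which 36345 identifiers were found. In 10 libraries each value came to a whole number of reads when divided by that library's smallest step (100% within 0.01), which gave 19.9 M to 31.6 M recovered reads (M, mega). IkNull replicate 3, with steps near 1 (1.005 and 1.007), stayed out of the tests on reads with edgeR 4.0.16 and DESeq2 1.42.0. The scripts were tested on simulated data.

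After removal of group means, libraries sharing number and genotype correlated across stromas at 0.58 to 0.83 (6 pairs, across genes), and the 12 other pairs at -0.70 to 0.20. They were taken as a culture on the basis of number and correlation, since the labels do not say what a number stands for. Libraries sharing a number across genotypes correlated at 0.20 to 0.48 (4 pairs, 2 on each stroma), against -0.43 to 0.23 for the others, and were not taken as paired.

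The members and the other lists were chosen with earlier results of these data known. All 34 members are accounted for. Members called in either genotype comparison, and the 6 others with the highest mean, are given per library, and the rest by range. Up to 4 called genes of each other list with the smallest adjusted p are named. Promoters are those of the 4 members called on both stromas with the smallest adjusted p that were in the table. Alternatives were other pseudocounts, filters, scalings and tools, a replicate block, and leaving out each library and each culture.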

Additional observations from a re-analysis of the deposited data

Results flagged for a closer look

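Tek was the gene among the 22 tested whose stroma difference ran in opposite directions in the 2 genotypes in every culture. Its log2 difference, OP9-DL1 minus OP9, was -0.52, -0.11 and -0.91 in IkNull replicates 1, 2 and 3, and 0.42, 0.82 and 0.30 in IkWT replicates 1, 3 and 4. The difference between the genotypes was -1.03 in log2 and did not pass the interaction test (limma adjusted p = 1, and 0.495 with the replicate block). The IkWT libraries held 1.86 to 9.28 normalized counts of Tek, which are 3 to 9 reads.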

How the results depend on the processing

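The genotype calls were 11 on OP9-DL1 and 11 on OP9, and edgeR gave 7 and 7. Rescaling every library to the same total, which moved the median of all genes to -0.26 and -0.21 in log2, gave 8 on OP9-DL1 and 7 on OP9. With cultures left out, the calls lay between 5 and 13 on each stroma, and with single libraries between 5 and 13 on OP9-DL1 and 6 and 12 on OP9. The count of genes called lower, 0, lay between 0 and 1 with libraries left out: Calcrl was called on OP9-DL1 without the IkWT replicate 1 culture, and on both stromas without replicate 1 of both genotypes. Without the filter on low values 1 gene, Ramp2, was lower on OP9-DL1. With the replicate number as a block, in which the genotype contrast rests on the shared numbers 1 and 3, 13 genes were higher on each stroma (15.5% and 12.9% of all genes), Eng and Cd34 being added (limma adjusted p = 0.00147 and 0.00861 on OP9-DL1, 0.00164 and 0.018 on OP9). In that fit 6 and 4 neutrophil genes and 17 and 17 of the vascular list were higher. With the culture as a random block 9 endothelial genes were called higher on each stroma, against 9.71% of all genes on OP9-DL1 and 7.23% on OP9. Ednrb was lost on both stromas, Icam2 on OP9-DL1 and Lyve1 on OP9. For the stroma, 1 gene was lower in IkNull cells with the replicate block, with the random block and by DESeq2. In IkWT cells 1 was higher and 2 lower with either block, and DESeq2 called 1 lower. With the random block, 0.777% of all genes were higher and 0.211% lower in IkNull cells, and 0.421% and 0.77% in IkWT cells. By DESeq2 the shares were 0.0436% and 0.00726% in IkNull cells, and 0.0726% and 0.0291% in IkWT cells. The cause of these shifts was not tested.

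Only values that were not called changed sign. Lyve1 on OP9-DL1 was -0.013 with the same total, -0.079 with the replicate block, -0.15 without IkNull replicate 2 and -0.016 without IkWT replicate 4, and lay between -0.15 and 0.47 with single libraries left out. Nostrin on OP9-DL1 was -0.19 with the same total, -0.094 by edgeR, -0.042 by DESeq2, -0.38 with the replicate block, -0.11 without IkNull replicate 2 and -0.34 without IkWT replicate 4, with a range of -0.34 to 0.53. Flt4 on OP9 was 0.12 with a pseudocount of 5, 0.93 without IkNull replicate 1 and 0.84 without replicate 1 of both genotypes, with a range of -1.16 to 0.93. Egfl7 on OP9 was -0.067 with the same total, -0.36 without IkWT replicate 1 and -0.43 without replicate 1 of both genotypes, with a range of -0.36 to 0.50. Of the values of single genes under the alternatives, 1233 kept their direction and side of the threshold, 99 were weaker, 28 stronger and 22 reversed. Low counts limit Cdh5, Flt1, Tek, Tie1, Aplnr and Lyve1 in IkWT cells and leave 12 of the 34 genes untested.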
